A study of Mus musculus with 20 samples.

Results

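The acute phase genes Saa1, Saa2, Saa3, Hp and Lbp and the pentraxin genes Mptx1 and Ptx3 were followed in the middle colon of 20 mice with and without colitis. These 7 genes were chosen for the rise of Saa3 and Hp and the fall of Mptx1 in colitis, so their levels in colitis against healthy colon are given as a description, with no test. Of the 7 genes, 6 had a probe set of their own and all 6 were among the 16739 genes tested, while Saa1 was measured only through a probe set that it shares with Saa2.

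All mice were female C57BL/6JOlaHsd of about 11 weeks, and each of the 20 arrays held total RNA from the colon of 1 mouse. There were 4 mice in each of 5 groups: healthy mice on saline (called untreated) or on a probiotic, and mice with colitis on saline (again untreated), on the probiotic or on cyclosporine. Colitis was induced chemically with 3% dextran sodium sulphate (DSS) in the drinking water over 5 days, an agent that injures the colonic epithelium. The probiotic was a mixture of the bacterial strains L930BB and IM386 in saline, given by stomach tube before DSS and together with it. Cyclosporine A, a calcineurin inhibitor that suppresses T cells, was given by mouth at 25 mg/kg on each day from day 1 to day 15. It was suspended in methocel, whereas the probiotic was in saline, and healthy mice on cyclosporine were not part of the design, so cyclosporine could be compared only among colitis groups.

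Serum amyloid A proteins are small apolipoproteins that liver and inflamed tissues release when cytokines act through the transcription factors NF-kB, C/EBP and STAT3. Haptoglobin binds free haemoglobin, and the lipopolysaccharide binding protein Lbp hands bacterial lipopolysaccharide to the receptor Cd14. Pentraxins are ring-shaped pattern recognition proteins: Mptx1 is a short mucosal pentraxin of the intestine, and Ptx3 is a long pentraxin that stromal, endothelial and myeloid cells make on inflammatory signals.

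The promoters of serum amyloid A genes and of Mptx1 are shown because their transcripts moved in opposite directions or hardly at all in the same colons. Each sequence is the 250 bases before the RefSeq start in the assembly GRCm38.p6, read along the gene. The table of promoters matched 5 of the 7 genes, and Hp and Lbp were not among them. Capitals mark a match to the C/EBP motif TTGCNNAA, searched on both strands. The windows are chr7:46742981-46743230 for Saa1 (minus strand), chr7:46751583-46751832 for Saa2 (plus strand), chr7:46715677-46715926 for Saa3 (minus strand) and chr1:174330268-174330517 for Mptx1 (plus strand).
Saa1: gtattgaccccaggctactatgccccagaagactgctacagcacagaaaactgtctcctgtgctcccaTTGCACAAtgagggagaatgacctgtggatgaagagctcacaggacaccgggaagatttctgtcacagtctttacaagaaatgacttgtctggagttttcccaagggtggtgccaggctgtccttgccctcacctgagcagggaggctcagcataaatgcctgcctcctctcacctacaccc
Saa2: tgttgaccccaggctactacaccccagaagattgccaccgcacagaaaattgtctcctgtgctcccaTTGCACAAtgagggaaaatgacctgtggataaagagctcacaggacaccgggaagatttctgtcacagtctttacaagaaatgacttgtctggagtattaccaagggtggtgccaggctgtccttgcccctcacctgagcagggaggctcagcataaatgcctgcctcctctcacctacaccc
Saa3: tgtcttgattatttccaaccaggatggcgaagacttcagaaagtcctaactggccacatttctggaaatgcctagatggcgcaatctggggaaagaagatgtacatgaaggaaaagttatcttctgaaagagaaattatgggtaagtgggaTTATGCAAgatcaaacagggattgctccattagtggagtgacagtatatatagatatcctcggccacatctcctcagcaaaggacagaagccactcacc
Mptx1: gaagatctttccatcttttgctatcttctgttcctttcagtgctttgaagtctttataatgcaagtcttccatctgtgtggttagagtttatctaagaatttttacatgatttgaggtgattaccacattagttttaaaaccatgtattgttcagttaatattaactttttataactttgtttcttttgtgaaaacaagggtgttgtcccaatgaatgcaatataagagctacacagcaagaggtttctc

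The windows of Saa1 and Saa2 were identical at 94.8% of 251 aligned positions, and both held TTGCACAA, at -182 to -175 in Saa1 and at -183 to -176 in Saa2. Saa3, on the same chromosome, matched Saa1 at 52.2% of aligned positions. Its C/EBP match lay nearer to the start, at -99 to -92, and reads TTGCATAA on the opposite strand. Ptx3 (chr3:66219637-66219886, plus strand) also had 1 match, and Mptx1 had 0. The C/EBP motif was found in 9.56% of 32851 promoters of the table. The STAT motif TTCNNNGAA, found in 7.02% of promoters, and the NF-kB motif, found in 3.90%, had 0 matches in these 5 windows. A match is a run of letters, and binding was not measured.

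Values are log2 expression as normalised by the authors, so a difference of 1 is a 2-fold change, and levels are compared between mice, not between probe sets. The medians of the 20 arrays lay between 6.22 and 6.29. Markers of colon tissue, such as the epithelial keratin Krt20, the mucin Muc2 and the intestinal transcription factor Cdx2, were above the filter level of 5.30 on all 20 arrays (11 of 11 genes). On the principal components of all tested genes 3 arrays lay away from their groups, namely mouse 8 of probiotic colitis, mouse 6 of untreated colitis and mouse 2 of untreated healthy. Values without these 3 arrays, a choice made after seeing the data, are given beside the main results. Colitis mice 8 and 6 had the lowest Saa3 of their groups (7.21 and 6.63). Leaving them out therefore raises the Saa3 mean of both groups. The same 2 mice had the lowest neutrophil marker means of their groups (6.41 and 6.34) and the lowest macrophage marker means (8.58 and 7.69). Counts of inflammatory genes without the 3 arrays carry this choice too. The tissue was bulk colon, in which fewer cells of a type and less RNA per cell cannot be told apart.

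**Figure D1:**
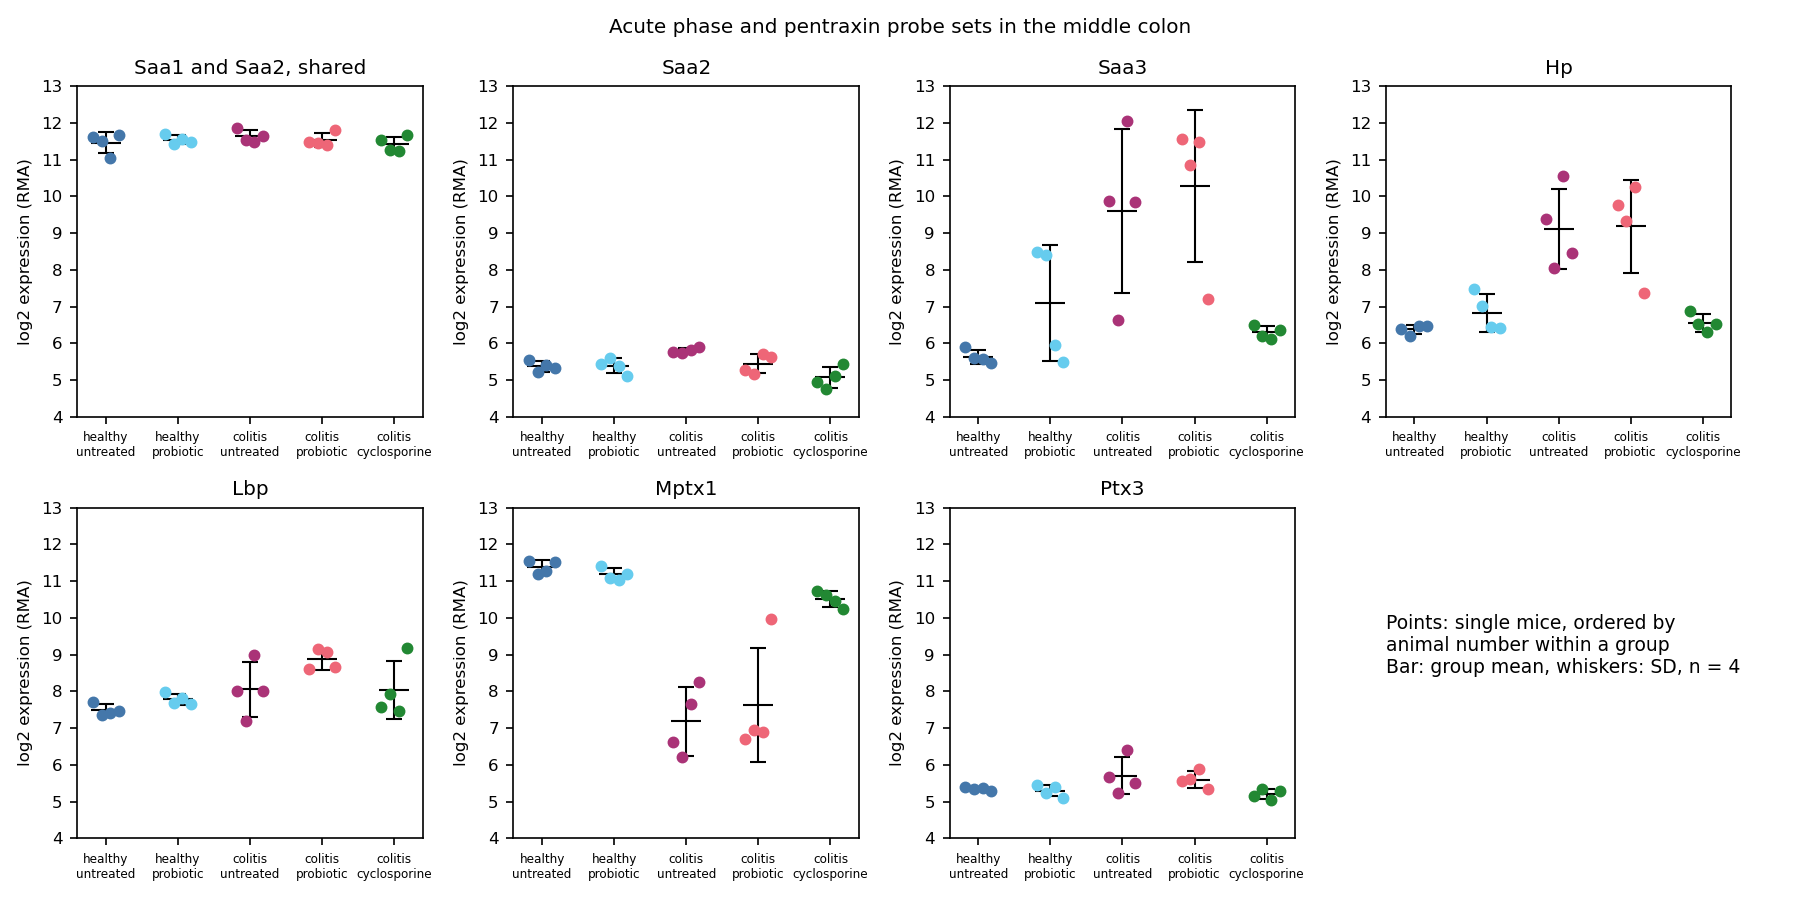
Log2 expression (vertical axis) of the 7 probe sets in each mouse, by group. Points are single mice, bars are group means and whiskers are SD (n = 4). Saa3 and Hp are spread widely within the untreated and probiotic colitis groups, Mptx1 is low in both, and in the cyclosporine group Saa3, Hp and Mptx1 lie close together near the healthy groups while Lbp runs from 7.46 to 9.18.

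Saa3, the serum amyloid A gene that mice express chiefly outside the liver, had the widest span of the 7 probe sets. In untreated healthy mice 2, 4, 6 and 7 its log2 expression was 5.91, 5.59, 5.58 and 5.47. In probiotic healthy mice 4, 5, 6 and 7 it was 8.48, 8.41, 5.96 and 5.49. The healthy probiotic group thus fell into 2 high and 2 low mice, the low ones at the level of untreated healthy mice. In untreated colitis mice 5, 6, 7 and 10 Saa3 was 9.86, 6.63, 12.04 and 9.84. In probiotic colitis mice 3, 5, 7 and 8 it was 11.56, 10.84, 11.49 and 7.21. Both groups held 1 mouse far below the rest, and the range within untreated colitis was 42.5-fold. In cyclosporine colitis mice 4, 7, 9 and 10 it was 6.50, 6.20, 6.11 and 6.37, a narrow band just above all 4 untreated healthy mice.

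The group means of Saa3 were 5.64 ± 0.19 (SD, n = 4) in untreated healthy, 6.30 ± 0.18 in cyclosporine colitis, 7.09 ± 1.58 in probiotic healthy, 9.59 ± 2.23 in untreated colitis and 10.28 ± 2.07 in probiotic colitis. In that order the first 2 groups did not overlap, and every other pair of neighbours overlapped. The untreated colitis mean lay 3.95 above the untreated healthy mean on the log2 scale (15.5-fold), and no array of these groups overlapped. Under the probiotic the colitis mean lay 3.19 above the healthy mean (9.14-fold), with overlap, since colitis mouse 8 was below healthy mice 4 and 5.

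Saa1 and Saa2, which the intestinal epithelium makes in response to bacteria, showed no such spread on their shared probe set. Its log2 expression was 11.62, 11.50, 11.04 and 11.67 in the untreated healthy mice and 11.87, 11.52, 11.49 and 11.63 in the untreated colitis mice. The probiotic colitis mice had 11.47, 11.45, 11.39 and 11.80, and the cyclosporine colitis mice 11.52, 11.25, 11.23 and 11.66. All 5 groups overlapped on this probe set, including the probiotic healthy mice at 11.42 to 11.70. The span over the 20 arrays was 0.83 on the log2 scale (1.78-fold), against 6.56 (94.6-fold) for Saa3. Because Saa1 and Saa2 are near copies, this probe set cannot assign a change to either gene.

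The probe set assigned to Saa2 alone was dim, above the filter level on 13 of 20 arrays. It read 5.54, 5.22, 5.41 and 5.32 in untreated healthy mice and 5.77, 5.74, 5.81 and 5.90 in untreated colitis mice, which did not overlap. In cyclosporine colitis it was 4.95, 4.77, 5.11 and 5.45, with 1 of 4 arrays above the filter level. A difference from that group is thus read near background, and its size is uncertain. Probiotic colitis mice lay at 5.28, 5.17, 5.72 and 5.64, all below the untreated colitis mice by a gap of 0.02, and probiotic healthy mice at 5.12 to 5.61.

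Hp, which encodes haptoglobin, followed the same mice as Saa3. It was 6.38, 6.20, 6.47 and 6.48 in untreated healthy mice, and 7.47, 7.02, 6.43 and 6.42 in probiotic healthy mice 4, 5, 6 and 7. Healthy mice 4 and 5 on the probiotic were again the high ones. In untreated colitis mice 5, 6, 7 and 10 Hp was 9.39, 8.06, 10.54 and 8.47, and in probiotic colitis mice 3, 5, 7 and 8 it was 9.77, 9.32, 10.25 and 7.38. Under cyclosporine it was 6.88, 6.52, 6.31 and 6.52, which overlapped with untreated healthy mice. The means were 6.38 ± 0.13 (SD, n = 4) in untreated healthy, 6.56 ± 0.24 in cyclosporine colitis, 6.83 ± 0.51 in probiotic healthy, 9.11 ± 1.10 in untreated colitis and 9.18 ± 1.26 in probiotic colitis. Of the neighbours in this order, all overlapped except probiotic healthy and untreated colitis. Untreated colitis lay 2.73 above untreated healthy (6.65-fold).

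Lbp had another order of groups. It was 7.72, 7.35, 7.42 and 7.47 in untreated healthy mice, 7.97, 7.68, 7.81 and 7.66 in probiotic healthy mice and 8.0, 7.19, 9.0 and 8.02 in untreated colitis mice. Untreated colitis mouse 6, low for Saa3, had the lowest Lbp of all 20 arrays. Probiotic colitis mice were uniformly high at 8.60, 9.16, 9.06 and 8.66, mouse 8 included. Cyclosporine colitis mice had 7.57, 7.92, 7.46 and 9.18, so that mouse 10 carried the highest Lbp of all arrays although its Saa3 and Hp were low. The group means were 7.49 ± 0.16 (SD, n = 4) in untreated healthy, 7.78 ± 0.14 in probiotic healthy, 8.03 ± 0.79 in cyclosporine colitis, 8.05 ± 0.74 in untreated colitis and 8.87 ± 0.28 in probiotic colitis. Every pair of neighbours in this order overlapped. Probiotic colitis lay 1.09 above probiotic healthy (2.13-fold) with no overlap, and untreated colitis 0.56 above untreated healthy (1.48-fold) with overlap. The latter value ran from 0.25 to 0.85 with single mice left out and was 0.93 without the 3 arrays that stood apart.

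Mptx1, the mucosal pentraxin, ran the other way. Its log2 expression was 11.55, 11.19, 11.26 and 11.53 in untreated healthy mice and 11.41, 11.09, 11.04 and 11.20 in probiotic healthy mice. It was 6.62, 6.20, 7.65 and 8.24 in untreated colitis mice 5, 6, 7 and 10, and 6.70, 6.96, 6.89 and 9.96 in probiotic colitis mice 3, 5, 7 and 8. Untreated colitis mouse 6 thus had the lowest Mptx1 of all arrays beside the lowest Saa3 of its group, whereas probiotic colitis mouse 8 had high Mptx1 beside low Saa3. Cyclosporine colitis mice had 10.72, 10.62, 10.45 and 10.25, all above every other colitis mouse and all below every healthy mouse. The means were 11.38 ± 0.18 (SD, n = 4) in untreated healthy, 11.19 ± 0.16 in probiotic healthy, 10.51 ± 0.21 in cyclosporine colitis, 7.63 ± 1.56 in probiotic colitis and 7.18 ± 0.93 in untreated colitis. Only the 2 healthy groups, and the probiotic and untreated colitis groups, overlapped with their neighbour. Untreated colitis lay 4.20 below untreated healthy on the log2 scale (18.4-fold), and cyclosporine colitis lay 0.87 below it (1.83-fold).

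Ptx3, the long pentraxin, stayed near the filter level of 5.30, above it on 14 of 20 arrays. It was 5.39, 5.33, 5.37 and 5.29 in untreated healthy mice and 5.67, 5.24, 6.40 and 5.50 in untreated colitis mice. The highest value was that of untreated colitis mouse 7, the mouse with the highest Saa3 and Hp. Probiotic colitis mice had 5.57, 5.61, 5.89 and 5.33, cyclosporine colitis mice 5.14, 5.34, 5.04 and 5.30, and probiotic healthy mice 5.11 to 5.46. All 5 groups overlapped.

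Among the 6 tested genes, 4 had untreated colitis and untreated healthy arrays that did not overlap (Saa3, Hp, Mptx1 and Saa2), where 24.6% of all genes did so. Under the probiotic 2 of the 6 did so (Lbp and Mptx1), against 31.1% of all genes. Since the genes were chosen on this contrast, nothing is read from these counts.

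The question put to the cyclosporine group was how colitis under an immunosuppressant differs from colitis under saline or the probiotic. Genes were tested with limma over all 16739 genes, with a Benjamini-Hochberg adjusted p under 0.05 as the threshold. The fit holds a single spread per gene over all 5 groups. Standard errors, intervals and p therefore take in groups outside a comparison, although SD differed widely between groups. The genes were chosen for their change in colitis, so each fall or rise from a colitis group starts at a level that this choice favoured. Ranks and counts of the chosen genes carry the same choice, and nothing is read from them. Both comparisons share the cyclosporine arrays, and their values are set side by side only.

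Compared with probiotic colitis, cyclosporine colitis had lower Saa3 and Hp and higher Mptx1. Saa3 fell by 3.98 ± 0.97 (SE) on the log2 scale, with a 95% interval of -6.00 to -1.96 (15.8-fold, limma adjusted p = 0.0057). Hp fell by 2.62 ± 0.50 (6.16-fold, limma adjusted p = 0.00107), and Mptx1 rose by 2.88 ± 0.52 (7.38-fold, limma adjusted p = 0.000724). In each of the 3, no array of one group reached into the other, as was so for 21.0% of all genes. These were 3 of the 6 tested genes, where 23.2% of all genes passed. Among all genes ordered by this difference, Saa3 was the third from the lowest and Mptx1 was at position 4 from the highest.

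Lbp, Saa2 and Ptx3 did not pass in this comparison. The difference of Lbp was -0.84 ± 0.32 (95% interval -1.51 to -0.16, limma adjusted p = 0.0677), with 3 of 4 cyclosporine mice below all probiotic mice. Cyclosporine mouse 10 lay above all probiotic mice, and without it the difference was -1.22 (limma adjusted p = 0.0031). The difference of Saa2 was -0.38 ± 0.14 (limma adjusted p = 0.0534), and -0.51 (limma adjusted p = 0.00979) without cyclosporine mouse 10. That of Ptx3 was -0.39 ± 0.17 (limma adjusted p = 0.104). Without the 3 arrays that stood apart, 5 of the 6 genes passed, Lbp at -0.91 and Ptx3 at -0.48 included, where 30.2% of all genes passed in that fit in place of 23.2%. The shared probe set of Saa1 and Saa2 differed by -0.11 ± 0.13 (95% interval -0.39 to 0.17), in a fit over 792 probe sets with several gene symbols.

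Compared with untreated colitis, cyclosporine colitis again had lower Saa3 and Hp and higher Mptx1. Mptx1 rose by 3.33 ± 0.52 (95% interval 2.24 to 4.42, 10.1-fold, limma adjusted p = 0.000467), the largest increase of all 16739 genes in this comparison. From untreated healthy to untreated colitis it had the largest fall of all genes, and it was chosen for its fall in colitis. Hp fell by 2.56 ± 0.50 (5.89-fold, limma adjusted p = 0.00258) and Saa3 fell by 3.29 ± 0.97 (95% interval -5.32 to -1.27, 9.82-fold, limma adjusted p = 0.03). Saa2 fell by 0.74 ± 0.14 on its dim probe set (limma adjusted p = 0.00208). The bright probe set that Saa2 shares with Saa1 did not pass, at -0.21 (limma adjusted p = 0.374), and its arrays overlapped. Mptx1, Hp, Saa3 and Saa2 were 4 of the 6 tested genes, where 13.2% of all genes passed. For all 4 the groups did not overlap, as was so for 15.0% of all genes.

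The call for Saa3 against untreated colitis was lost on leaving out untreated colitis mouse 5, 7 or 10, or cyclosporine mouse 4, 7 or 9. The adjusted p then lay between 0.0547 and 0.107, and without untreated colitis mouse 7 the difference was -2.48. Without the 3 arrays that stood apart, among them the untreated colitis mouse with the lowest Saa3, it was -4.28 (limma adjusted p = 0.00027). The difference of Ptx3 was -0.50 ± 0.17 (limma adjusted p = 0.0591), and -0.65 (limma adjusted p = 0.0128) without untreated colitis mouse 6. It ran from -0.65 to -0.27 with single mice left out, the latter without untreated colitis mouse 7. Without the 3 arrays that stood apart it was -0.65 (limma adjusted p = 0.00959), which made 5 of the 6 genes called, where 18.5% of all genes passed in that fit in place of 13.2%. Lbp differed by -0.02 ± 0.32, with an interval of -0.70 to 0.65, and the shared probe set of Saa1 and Saa2 by -0.21 ± 0.13 (interval -0.49 to 0.07).

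The probiotic was given to ask whether it changes the colon in colitis and in health. Against untreated colitis 0 of the 6 tested genes passed in limma, where 2.80% of all genes did, and Lbp and Saa2 were the 2 with an unadjusted p under 0.05. Lbp differed by 0.82 ± 0.32 (95% interval 0.14 to 1.49, limma adjusted p = 0.182), and its difference ran from 0.53 without untreated colitis mouse 6 to 1.13 without untreated colitis mouse 7 (limma adjusted p = 0.0423). It was 0.60 (limma adjusted p = 0.401) without the 3 arrays that stood apart. Saa2 differed by -0.35 ± 0.14 (limma adjusted p = 0.179) on arrays that did not overlap, as 7.90% of all genes did. The intervals for the others were wide: -1.34 to 2.71 for Saa3, -0.98 to 1.11 for Hp and -0.64 to 1.53 for Mptx1. The SD of Saa3 was 2.23 in untreated and 2.07 in probiotic colitis, but 0.19 in untreated healthy and 0.18 in cyclosporine mice. With the spread shared over all groups, these intervals are narrower than the groups compared would give alone. Without probiotic colitis mouse 8 the difference of Mptx1 changed sign, from 0.45 to -0.33.

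In healthy mice 0 of the 6 tested genes passed, as 0 of all 16739 genes did in limma, 1511 of them with an unadjusted p under 0.05. Saa3 differed by 1.45 ± 0.97 (interval -0.58 to 3.47, limma adjusted p = 0.695), with 3 of 4 probiotic mice above all untreated mice. The difference rested on mice 4 and 5 (8.48 and 8.41), while mouse 6 (5.96) lay just above the highest untreated mouse (5.91). It was the second largest increase of all genes, but Saa3 was chosen for its rise in colitis and nothing is read from this rank. Hp differed by 0.45 ± 0.50 (interval -0.59 to 1.50), and Mptx1 by -0.20 ± 0.52 (interval -1.28 to 0.89). The SD of Mptx1 was 0.18 in untreated and 0.16 in probiotic healthy mice. Its interval, with the spread shared over all groups, is wider than these mice would give alone. The probiotic effect in colitis was then set against that in healthy mice, and 0 of the 6 genes and 0 of all genes passed, 1446 with an unadjusted p under 0.05. The interval of this difference was -3.62 to 2.10 for Saa3 and -0.90 to 2.18 for Mptx1.

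**Figure D2:**
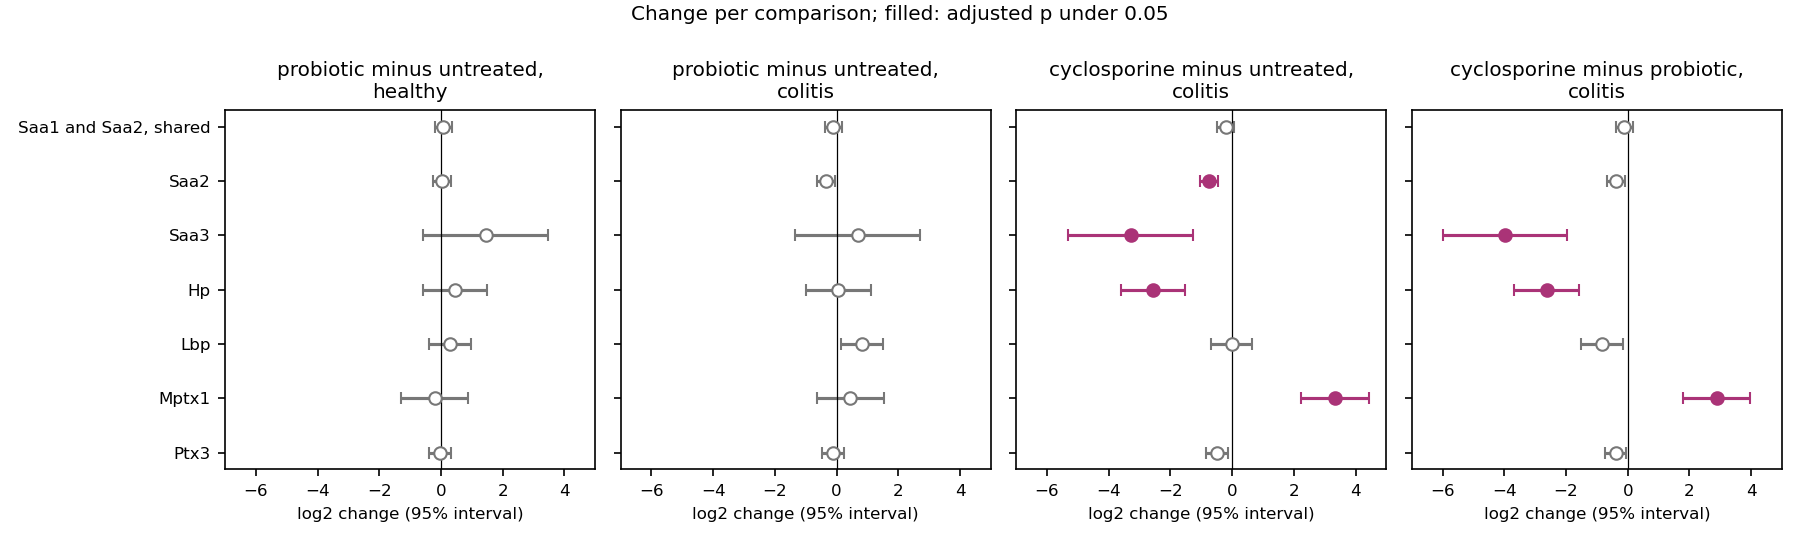
Log2 change with its 95% interval (horizontal axis) for each probe set in 4 comparisons; filled points have an adjusted p under 0.05. Saa3 and Hp lie to the left and Mptx1 to the right in both cyclosporine comparisons, the shared Saa1 and Saa2 probe set lies near 0 in all 4, and no point is filled for the probiotic.

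Saa3, Hp and Ptx3 largely rose and fell together from mouse to mouse within the untreated and probiotic colitis groups. In cyclosporine colitis, where all 3 varied little, mouse 4 had the highest Saa3 (6.50) but a Ptx3 of 5.14. Mouse 7 of that group had the highest Ptx3 (5.34) beside a Saa3 of 6.20. Over the 12 colitis arrays, the deviations from group means correlated with r = 0.93 between Saa3 and Hp and 0.81 between Saa3 and Ptx3. Between Saa3 and Lbp r was 0.55, and between Saa3 and the shared Saa1 and Saa2 probe set -0.33. For Mptx1 it was -0.32 with Saa3 and -0.50 with Hp, although r without removing group means was -0.73 and -0.84. These are descriptions: values share arrays, and the groups of 4 lie apart for Mptx1.

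The mean of 15 neutrophil markers, among them the calprotectin subunits S100a8 and S100a9 and the chemokine receptor Cxcr2, moved with Saa3 and Hp. It was 5.75 to 5.95 in untreated healthy mice, 7.23, 6.34, 9.11 and 7.32 in untreated colitis mice 5, 6, 7 and 10, and 8.80, 8.43, 9.01 and 6.41 in probiotic colitis mice 3, 5, 7 and 8. In cyclosporine colitis it was 5.96 to 6.12. Probiotic healthy mice 4 and 5, high for Saa3, had 6.35 and 6.36, whereas mice 6 and 7 had 5.86 and 5.84. The deviations from group means correlated with those of Saa3 and of Hp at r = 0.96 each over the 12 colitis arrays. Of the 15 markers 13 fell against probiotic colitis (median change -2.25) and 4 against untreated colitis (median -1.52), or 12 without the 3 arrays that stood apart. The shares of all genes that fell were 12.0%, 5.58% and 8.57% in the same order. One of the 16 listed markers, Camp, was not tested as dim. The part of neutrophils in the levels of Saa3 and Hp was not tested.

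The mean of 14 colonocyte markers, such as the carbonic anhydrases Car1 and Car4 and the chloride exchanger Slc26a3, was lower in untreated and probiotic colitis, as Mptx1 was. It was 11.68 to 11.95 in untreated healthy, 11.55 to 11.77 in probiotic healthy, 11.12 to 11.42 in untreated colitis, 10.76 to 11.20 in probiotic colitis and 11.54 to 11.63 in cyclosporine colitis. From untreated to probiotic colitis its group mean went from 11.30 to 10.99, while that of Mptx1 went from 7.18 to 7.63. Deviations of the colonocyte mean correlated with those of Mptx1 at r = 0.76, and those of the colon tissue marker mean at 0.69. Markers differed in spread: over all arrays Car1 ran from 10.96 to 12.95, Epcam from 11.83 to 12.14 and Lypd8 from 13.82 to 13.92. Of the 14 colonocyte markers 7 rose in cyclosporine against probiotic colitis and 5 against untreated colitis, with medians of 0.57 and 0.09, next to 2.88 and 3.33 for Mptx1. The shares of all genes that rose were 11.3% and 7.58%. The part of colonocytes in the level of Mptx1 was not tested.

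Lbp had an r of deviations of 0.68 with macrophage, 0.60 with endothelial, 0.59 with fibroblast and 0.53 with neutrophil markers. The differences between these values were not tested. Saa3 moved closely with macrophage and neutrophil markers (0.94 and 0.96). The mean of 15 macrophage markers, such as the growth factor receptor Csf1r and the surface marker Adgre1, was 7.45 to 7.64 in untreated healthy, 7.73 to 7.97 in probiotic healthy, 7.69 to 8.84 in untreated colitis, 8.58 to 9.29 in probiotic colitis and 7.78 to 8.17 in cyclosporine colitis. Of the 15, 11 rose in probiotic against untreated colitis (median 0.88), and 12 fell in cyclosporine against probiotic colitis (median -1.05). Of all genes 2.13% rose in the former and 12.0% fell in the latter. With only the groups compared in the fit, 0 of all genes passed in probiotic against untreated colitis, so the 11 calls were lost. Against untreated colitis 0 passed under cyclosporine, or 7 by falling without the 3 arrays that stood apart. Of all genes 13.2% passed in the main fit, and 8.57% fell without those arrays. Cyclosporine mouse 10, highest for Lbp, had 8.17, the same as mouse 4. The part of macrophages in the level of Lbp was not tested. The liver is the main source of plasma acute phase proteins, and the hepatocyte markers Fga, Fgb and Serpina1a were above the filter level on 0 of 20 arrays. Of the 13 hepatocyte markers listed, Alb, Apoa1, Apoa2, Apob, Ttr, Cps1 and Tat were above it on all 20 arrays, Serpina1b on 8, Ahsg on 6 and Apoh on 3. The mean of the 9 hepatocyte markers tested, several of which the intestine also expresses, was 7.42 to 7.60 in untreated healthy and 7.19 to 7.49 in untreated colitis. The mean of 11 adipocyte markers was 6.57 to 7.25 in untreated colitis and 7.04 to 7.35 in untreated healthy.

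**Figure D3:**
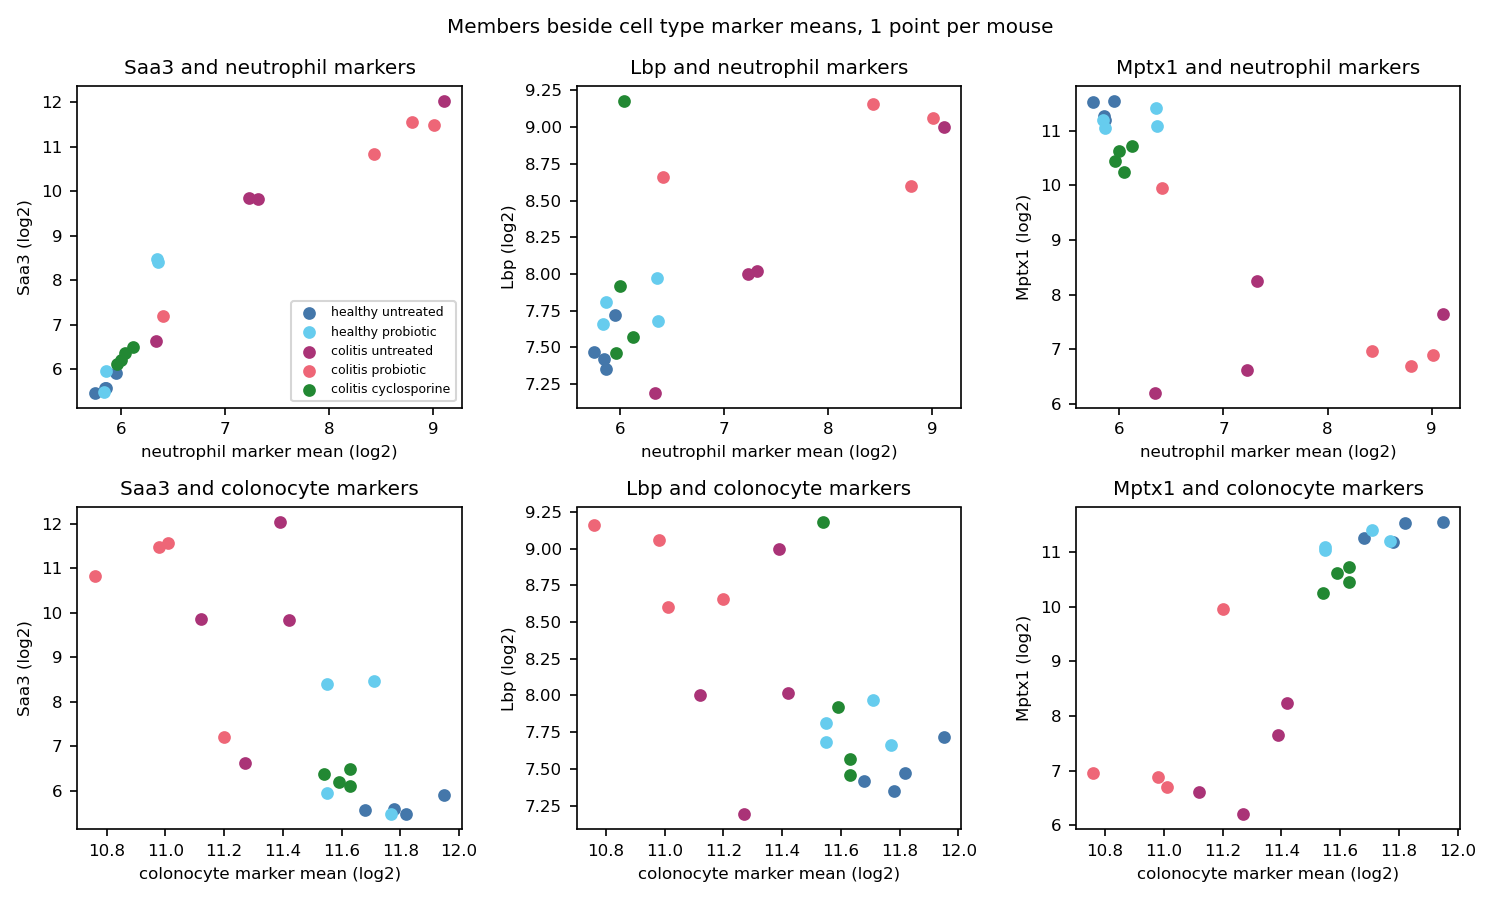
Log2 expression of Saa3, Lbp and Mptx1 (vertical axes) against the mean log2 expression of neutrophil markers (top row) and colonocyte markers (bottom row), with 1 point per mouse coloured by group. Mice with high neutrophil markers have high Saa3, Lbp has a cyclosporine mouse at 9.18 beside low neutrophil markers, and Mptx1 is high where colonocyte markers are high.

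The tested genes most like each member were those of highest Pearson r over the 12 colitis arrays. For Saa3 they were S100a9 (0.992), itself one of the neutrophil markers, and the stromelysin genes Mmp10 (0.988) and Mmp3 (0.982), which encode enzymes that cut extracellular matrix. S100a9 was 6.14 and 6.29 in probiotic healthy mice 4 and 5, and 4.86 and 4.81 in mice 6 and 7, the same split as Saa3. In cyclosporine against probiotic colitis S100a9 fell by 2.65 ± 0.66 and Mmp10 fell by 2.37 ± 0.49. Genes picked in this way share the group differences of their member on the same arrays. Their changes are therefore a description, with no test. For Hp the genes were Fkbp11 (0.976), Frem1 (0.965) and Cemip2 (0.958). Fkbp11, a prolyl isomerase of the secretory pathway, fell by 0.74 ± 0.14 in cyclosporine against probiotic colitis, again as a description.

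For Mptx1 they were Tcf7l2 (0.964), the Wnt pathway transcription factor of intestinal epithelium, Eapp (0.959) and Dbt (0.956), a subunit of the mitochondrial complex that breaks down branched-chain amino acids. Dbt rose by 0.46 ± 0.09 in cyclosporine against untreated colitis, and Tcf7l2 by 0.33 ± 0.09. Both were picked over these arrays, so no test is given. For Lbp they were Nr4a3 (0.918), Dhrs3 (0.911) and Carm1 (0.903), for Ptx3 Lmcd1 (0.965), Zfp281 (0.954) and Tgm1 (0.945), and for Saa2 Top1 (0.927), Snhg1 (0.884) and Tysnd1 (0.881). When all 20 arrays were used, 2 of the 3 genes were shared for Saa3, 1 each for Lbp and Ptx3 and 0 for the others, so most of these neighbours depend on the arrays taken.

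Other genes of the acute phase and pentraxin pathways were read from lists by role, with the tests over all genes. In untreated colitis against untreated healthy, 7 of 18 other acute phase genes rose and 0 fell, where 26.1% of all genes passed, 11.7% by rising and 14.4% by falling. Serpina3n, a protease inhibitor, rose by 2.83 ± 0.35 (limma adjusted p = 2.14e-05), Lrg1, a secreted glycoprotein of neutrophils and liver, by 2.25 ± 0.40, and Cp, the copper carrier ceruloplasmin, by 1.31 ± 0.27. The median change of the list was 0.20, next to -0.03 for all genes. The classical plasma pentraxins Crp and Apcs and the fibrinogen genes Fga, Fgb and Fgg were too dim to test.

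Of 16 cytokines that induce acute phase genes and their receptors, 6 rose and 1 fell in untreated colitis, where 11.7% of all genes rose and 14.4% fell. Il1b, an inflammatory cytokine of myeloid cells, rose by 3.51 ± 0.71, Tnf by 1.51 ± 0.24 and the oncostatin M receptor Osmr by 1.44 ± 0.21, while Il17rc fell by 0.48. Il6, Il22 and Il17a were too dim to test. Of 13 signalling genes 9 rose and 1 fell, among the risen the kinase Jak2 (0.47) and the NF-kB regulators Nfkbiz (0.96), Nfkbia (0.59) and Nfkb2 (0.57).

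Of 14 receptors and handling genes for serum amyloid A and lipopolysaccharide, 2 rose in untreated colitis, Tlr2 (0.83) and the Lbp partner Cd14 (1.02), and the scavenger receptor Cd36 fell by 0.81. Of 10 genes that handle haemoglobin and haem, the haem oxygenase Hmox1 rose by 0.75, the haem transporter Slc48a1 fell by 0.34 and the biliverdin reductase Blvrb fell by 0.24. For both lists the share that passed was near the 26.1% of all genes (11.7% rose, 14.4% fell), so nothing is read from these counts. Of 13 genes of the pentraxin family and its partners 6 rose and 0 fell, among them the pentraxin-binding Fc receptors Fcgr4 (1.71 ± 0.36), Fcgr2b (1.34 ± 0.23) and Fcgr1 (0.96 ± 0.27) and the complement gene C1qa (0.62 ± 0.17). Mptx2, the other mucosal pentraxin, whose promoter window matched that of Mptx1 at 74.0% of aligned positions, was below the filter level on all 20 arrays (4.47 to 5.21). The last list shares C1qa, C1qb, C1qc and Fcgr1 with the macrophage markers, of which 9 of 15 rose in untreated colitis. Without the 3 arrays that stood apart 9 of the 13 pentraxin family and partner genes rose, and 4 of the 14 receptors and handling genes rose and 0 fell. Of the cytokines and their receptors 8 then rose and 3 fell. In that fit 12.4% of all genes rose and 14.5% fell.

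In cyclosporine against probiotic colitis 7 of 18 other acute phase genes, 10 of 16 cytokine and receptor genes, 7 of 13 signalling genes and 9 of 13 pentraxin family and partner genes fell, where 12.0% of all genes fell and 11.3% rose. None of the acute phase or pentraxin list rose, 2 cytokine or receptor genes and 1 signalling gene did. Serpina3n fell by 2.12 ± 0.35 (limma adjusted p = 0.000405), the complement gene Cfb fell by 1.02 ± 0.14, Tnf fell by 1.74 ± 0.24 and Fcgr4 fell by 2.35 ± 0.36. Of the receptors for serum amyloid A and lipopolysaccharide 6 fell and 2 rose, and Tlr2 fell by 1.01 ± 0.15 and Cd14 fell by 1.16 ± 0.25. Of the haem genes only Hmox1 passed, and it fell by 0.94 ± 0.24. When the 3 arrays that stood apart were left out, 13 cytokine and receptor genes fell, and 1 haem gene rose and 2 fell. In that fit 15.6% of all genes rose and 14.7% fell.

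In cyclosporine against untreated colitis 5 acute phase, 5 cytokine or receptor, 4 signalling and 0 pentraxin family and partner genes fell, where 5.58% of all genes fell and 7.58% rose. Without the 3 arrays that stood apart, among them the untreated colitis mouse lowest in neutrophil markers, 8, 9, 6 and 6 fell. Of all genes 8.57% fell in that fit. The difference between both cyclosporine comparisons in these counts was not tested. Lrg1 fell by 1.93 ± 0.40 (limma adjusted p = 0.00376), Serpina3n fell by 1.50 ± 0.35 and Tnf fell by 1.23 ± 0.24. Of the cytokine and receptor genes 2 rose, Il17rc by 0.31 ± 0.08 among them. Of the 14 receptors and handling genes for serum amyloid A and lipopolysaccharide 3 rose and 2 fell. Cd36 rose by 1.26 ± 0.29, the lipopolysaccharide co-receptor Ly96 by 0.78 ± 0.17 and the purinergic receptor P2rx7 by 0.37 ± 0.08, whereas Cd14 fell by 1.01 ± 0.25 (limma adjusted p = 0.0132) and Tlr2 fell by 0.62 ± 0.15 (limma adjusted p = 0.012).

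In probiotic against untreated colitis 5 of 13 pentraxin family and partner genes rose and 0 fell, where 2.13% of all genes rose and 0.669% fell. C1qb, a chain of the complement component that pentraxins bind, rose by 1.29 ± 0.22 (limma adjusted p = 0.007) and C1qa by 0.84 ± 0.17 (limma adjusted p = 0.0155). The same chains are macrophage markers, 11 of 15 of which rose there, as did 4 of 8 fibroblast markers (median 0.47) and 3 of 9 endothelial markers (median 0.46). The part of these cells in the lists was not tested. P2rx7 rose by 0.61 ± 0.08 (limma adjusted p = 0.00207), its probiotic mice at 8.65 to 8.91 against 7.95 to 8.27. Cp rose by 1.08 ± 0.27 (limma adjusted p = 0.0404), the only other acute phase gene to pass. With only the 2 groups compared in the limma fit, 0 of all genes passed in probiotic against untreated colitis, 2533 with an unadjusted p under 0.05, so these calls were lost. In healthy mice 0 genes of these 6 lists passed for the probiotic.

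**Figure D4:**
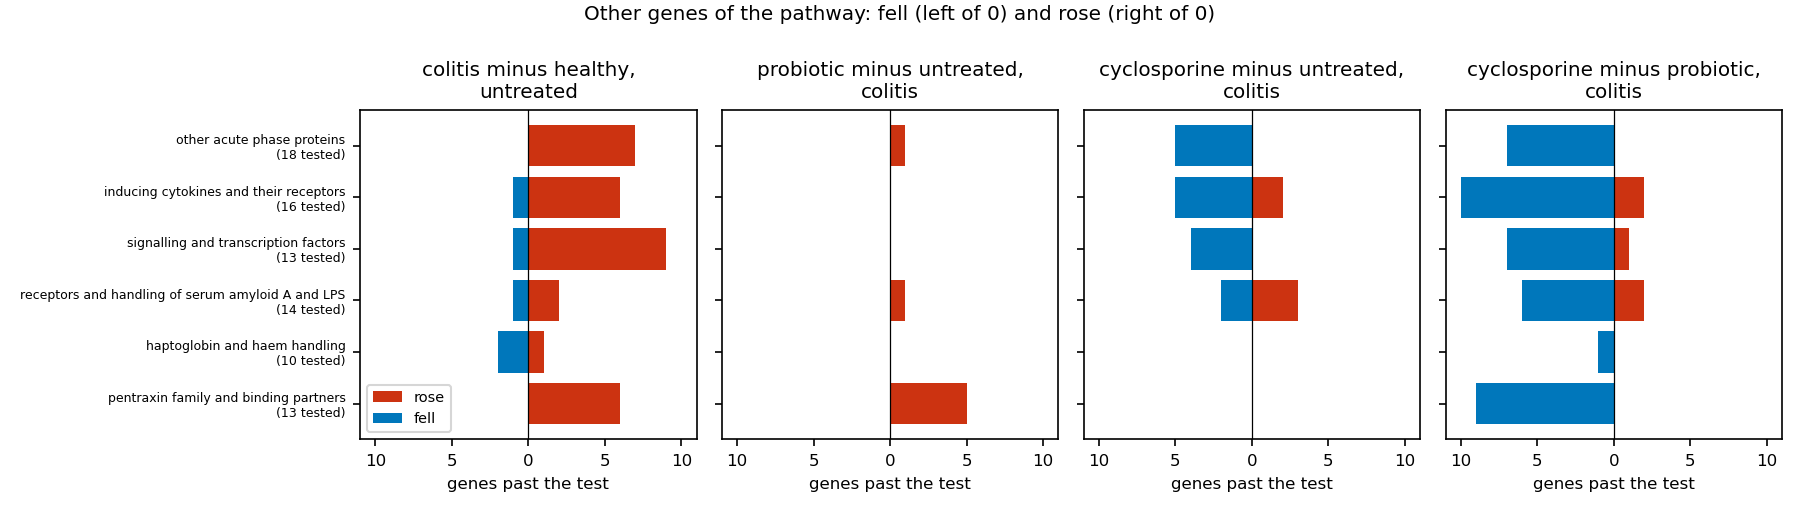
Number of genes of each pathway list (vertical axis, with the number tested) that fell (left of 0) or rose (right of 0) past an adjusted p of 0.05 in 4 comparisons. Most counts lie right of 0 in untreated colitis against healthy and left of 0 in both cyclosporine comparisons, and for the probiotic in colitis the pentraxin partners hold 5 of the 7 counts.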

How the data were processed

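Total RNA from the middle colon of 20 mice was measured on 1 Affymetrix array per mouse. The deposited values are log2 expression per probe set, normalised by the authors with RMA, per the submitters' processing notes, whose version is not given in the sources used here. RMA equalises the distributions of the arrays and leaves dim probe sets compressed towards background. Values were used as deposited. Of 41801 probe sets 29195 had values, and 22360 of these carry 1 gene symbol.

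Tests were run in R 4.3.3 with limma 3.58.1 (lmFit over 5 group means of all 20 arrays, eBayes, 15 residual degrees of freedom), adjusted by Benjamini-Hochberg over 16739 genes. A gene was kept if its brightest probe set exceeded 5.30, the 25th percentile, on at least 4 arrays, which left out 4684. The fit was tested on simulated data. Signal over background and 4 mice per group limit the precision.

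The 7 genes, the gene lists and the comparisons were chosen with earlier results of these data known. Named were all 7 genes, up to 4 called genes with the smallest p per pathway list in untreated colitis against healthy and up to 2 elsewhere, and the 3 tested genes of highest r per member, leaving out predicted genes. A list gene so named in any comparison could also be given in the others, whatever its order by p there. Members between colitis and healthy have no test. Promoters are from RefSeq, aligned with Biopython 1.88. Mice were housed 5 to a cage, but the cage of each mouse is not given in the sources used here, so cages could not be compared. Animal numbers did not pair mice between groups.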

Additional observations from a re-analysis of the deposited data

Results flagged for a closer look

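In each of the 5 groups the lowest and highest mouse of the 7 probe sets were compared with the other 3 mice by the gap as a share of the group's range, with a limit of 0.829 for 4 samples. Of 35 sets of 4 mice 2 passed it, and chance passes about 1 in 20. Both were probiotic colitis mouse 8. Its Saa3 was 7.21, the lowest of its group, where the others lay between 10.84 and 11.56. Its Mptx1 was 9.96, the highest of its group, where the others lay between 6.70 and 6.96. The same mouse had a neutrophil marker mean of 6.41, next to 8.43 to 9.01 in the other 3, and an Lbp of 8.66, within the range of its group.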

How the results depend on the processing

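In cyclosporine against probiotic or untreated colitis, Hp and Mptx1 kept direction and call under every alternative run, and so did Saa3 against probiotic colitis. Against untreated colitis Saa3 was -3.29 (adjusted p = 0.0516) with a trended, robust variance and -3.30 (adjusted p = 0.0555) with only the groups compared, and its range over single arrays left out was -4.28 to -2.48. Genes called over all genes moved from 468 in probiotic against untreated colitis to 1682 with array weights and 0 with only the groups compared. From 2202 for cyclosporine against untreated colitis they moved to 1119 with only the groups compared, and from 0 for the probiotic in healthy mice to 19. For the difference of probiotic effects, 0 became 5 with array weights and 18 without the 3 arrays that stood apart, an alternative chosen after seeing the data. Members called became 1 for probiotic against untreated colitis with array weights (Saa2), and 5 for cyclosporine against probiotic or untreated colitis without those 3 arrays. Mptx1 changed sign in probiotic against untreated colitis (0.45) to -0.42 with array weights and -0.66 without the 3 arrays, and in the difference of probiotic effects (0.64) to -0.27 and -0.52. The causes of these shifts were not tested. Over the alternatives that leave out no single array, 390 values of members were counted as the same, 7 changed sign, 7 gained a call and 2 lost it. For tested values the same meant that direction and call were kept. For colitis against healthy, with no test, it meant a shift smaller than the mean SD of the groups.

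Animal numbers as a replicate block gave 219 calls for probiotic against untreated colitis, 2100 in place of 3890 for cyclosporine against probiotic colitis and 1 for the difference of probiotic effects. Under the block Mptx1 was -0.22 and -0.13 in the 2 probiotic comparisons above and Lbp 0.09 in cyclosporine against untreated colitis. It changed no call of a member. The numbers did not pair the mice: deviations of 20 same-numbered pairs correlated at a mean r of 0.03 (-0.19 to 0.43), and those of 140 other pairs at -0.01.

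With single arrays left out, genes called ranged from 70 to 1220 (probiotic against untreated colitis), 1356 to 2451 and 2720 to 4578 (cyclosporine against untreated and probiotic colitis) and 0 to 45 (difference of probiotic effects), and members called from 0 to 1, 3 to 5 and 3 to 5 in the first 3. Log2 changes that crossed 0 ranged as follows. In probiotic against untreated colitis Saa3 was -0.30 to 1.71, Hp -0.29 to 0.66, Mptx1 -0.33 to 0.80 and Ptx3 -0.26 to 0.13. Lbp was -0.40 to 0.29 in cyclosporine against untreated colitis, and in healthy mice Saa2 was -0.05 to 0.11 and Ptx3 -0.10 to 0.02 for the probiotic. In colitis minus healthy under the probiotic Saa2, with no test, was -0.03 to 0.15. In the difference of probiotic effects Saa3 was -1.75 to 0.26, Hp -0.75 to 0.21, Mptx1 -0.14 to 0.99 and Ptx3 -0.21 to 0.17. Of these values, none that had a test passed it in the main fit. Dim probe sets (Saa2, Ptx3) limit what the arrays can show.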
